A study of Mus musculus with 14 samples.

Results

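Chemokine ligands and chemokine receptors were followed across 14 RNA sequencing libraries of mouse liver. The genes were taken by symbol: 65 symbols begin with a chemokine ligand, receptor or atypical receptor name (Ccl, Cxcl, Cx3cl, Xcl, Ccr, Cxcr, Cx3cr, Xcr or Ackr, followed by a number). With Ccl2, Ccl7, Ccl8, Ccl12 and Ccr2 left out, 60 genes made up the set. Of these, 40 reached at least 10 counts in 3 or more libraries and were analysed, 24 of them ligands and 16 receptors. They stood among 15807 genes that met the same minimum, of 45706 gene identifiers in the table. The other 20 stayed under it: Ccl11 had the highest count of these, 19 in 1 library, and Ccl26, Ccl27b and Cxcl17 had no count in any library.

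All mice were male C57BL6/J animals that were 8 weeks old at the start. The study asked how livers differ after a diet that brings on metabolic dysfunction-associated steatohepatitis (MASH, a fatty, inflamed and scarred liver), and after treatment on that diet with either of 2 related compounds. Chow or MASH diet was given for 16 weeks, and vehicle, C18:1 or C18:1-leucine for a further 6 weeks with the MASH diet going on. The libraries fall into a chow group (CD in the titles, 4 libraries), a MASH group (3 libraries, replicates 2, 3 and 4), an OA group (MASH OA, 4 libraries) and an OAL group (MASH OAL, 3 libraries, replicates 1, 2 and 4). OA was read as C18:1, a fatty acid with a single double bond, and OAL as C18:1-leucine, the same fatty acid coupled to the amino acid leucine. The MASH, OA and OAL groups share the diet. No source used here gives a dose or a treatment period for chow, and whether the MASH mice received vehicle is not in the titles. If periods differed, time and compound cannot be told apart where OA or OAL is compared with chow or MASH. Nothing in the labels says that each library came from a separate mouse, so p-values measure only the spread between these libraries, which may be partly technical.

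Treatment tags went against the titles for 2 libraries: OA 1 was tagged with diet alone and OAL 1 was tagged as OA. Groups follow the titles. Calls of chemokine members between OAL and OA are also given without these libraries, and those of other gene lists are not. Total counts ran from 33821874 (OA 2) to 51107248 (OAL 1), and the chi-square per gene between libraries of a group ran from 24.8 to 166, far above counting error, so no library was counted as a repeat of another. Summed hepatocyte markers, at 38100 to 93100 CPM (counts scaled to library size), bore out the labelled tissue in every library. Pancreatic enzyme transcripts came to 501 CPM in OAL 2 and 129 in chow 2 and to at most 1.58 in the other 12 libraries. Bile duct (cholangiocyte) markers were highest in OA 3, OA 1 and MASH 4, at 63.4, 57.6 and 56.4 summed CPM. Levels below are CPM relative to the scaled library size.

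Chemokines are small secreted or membrane-bound proteins that guide the movement of immune cells by binding receptors coupled to G proteins. Inflammatory ligands are made on demand and draw monocytes, neutrophils or T cells into tissue, while homeostatic ligands hold cells in place in bone marrow, lymphoid tissue and resting organs. Atypical receptors (Ackr) bind chemokines without G protein signalling and take them up. In a liver with steatohepatitis, macrophages, T cells and neutrophils gather along gradients of this kind. In whole tissue RNA, fewer cells of a type and less RNA per cell cannot be told apart.

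The stretches of 250 bases before the start of transcription are shown for 4 ligands, because 3 of them (Cxcl1, Cxcl2 and Cxcl10) carry motif letters of inflammatory transcription factors and because Cxcl12 was the most abundant member and was lower in MASH. They were taken from RefSeq (GRCm38.p6): Cxcl1 at chr5:90890995-90891244 on the plus strand, Cxcl2 at chr5:90903649-90903898 on the plus strand, Cxcl10 at chr5:92348890-92349139 on the minus strand and Cxcl12 at chr6:117168285-117168534 on the plus strand. Capitals mark matches to an NF-kB-type motif (GGGA, any 2 bases, then TTCC) or an interferon response type motif (GAAA, any 2 bases, then GAAA), searched on both strands. They are written 5′ to 3′ on the strand of the gene.
Cxcl1: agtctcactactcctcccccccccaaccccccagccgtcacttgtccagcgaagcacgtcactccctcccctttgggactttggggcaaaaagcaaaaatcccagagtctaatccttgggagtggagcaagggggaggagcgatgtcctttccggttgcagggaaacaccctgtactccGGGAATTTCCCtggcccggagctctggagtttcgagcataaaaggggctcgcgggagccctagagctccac
Cxcl2: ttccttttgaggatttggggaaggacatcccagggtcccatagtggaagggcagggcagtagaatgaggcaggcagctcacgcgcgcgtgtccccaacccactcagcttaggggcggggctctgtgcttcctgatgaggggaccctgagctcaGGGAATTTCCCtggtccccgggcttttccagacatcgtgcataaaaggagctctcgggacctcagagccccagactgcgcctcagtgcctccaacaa
Cxcl10: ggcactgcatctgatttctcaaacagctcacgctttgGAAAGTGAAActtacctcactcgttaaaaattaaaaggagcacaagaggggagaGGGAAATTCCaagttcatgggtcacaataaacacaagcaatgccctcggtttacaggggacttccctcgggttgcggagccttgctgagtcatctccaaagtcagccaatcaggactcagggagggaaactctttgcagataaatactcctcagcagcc
Cxcl12: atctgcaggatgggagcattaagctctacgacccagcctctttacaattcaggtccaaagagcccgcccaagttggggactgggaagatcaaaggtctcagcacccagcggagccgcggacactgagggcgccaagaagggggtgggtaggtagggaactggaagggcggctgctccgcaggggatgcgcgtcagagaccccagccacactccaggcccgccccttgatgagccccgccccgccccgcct
Cxcl1 and Cxcl2 carry the same capital letters, which match on both strands in overlapping positions, 71 to 61 bases before the start in Cxcl1 and 97 to 87 in Cxcl2. Cxcl10 carries the interferon type letters 213 to 204 bases and the NF-kB-type letters 159 to 150 bases before the start. The NF-kB-type letters stood in 1.21% of 32851 RefSeq windows of this length and in 4 of the 32 analysed members with a window (Ccr3, Cxcl1, Cxcl2 and Cxcl10). The interferon type letters stood in 2.98% of windows and in 3 of the 32 members (Ccl19, Cxcl10 and Cxcl14). Ccl24, Ccl4, Ccl5, Ccr7, Cxcl16, Cxcl5 and Cxcr5 were among those without a window. A match is a run of letters and not a measured site.

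In livers on the MASH diet 13 chemokine ligands, among them Cxcl16, Cxcl10, Ccl5 and Ccl6, and 8 receptors, among them Cx3cr1, Cxcr4 and Ccr1, stood above chow, while the ligands Cxcl12, Cxcl13 and Ccl27a stood below it. With edgeR's quasi-likelihood test and an adjusted p below 0.05, 21 of the 40 members (52.5%) were higher in MASH, where 20.2% of all tested genes were, and 3 (7.5%) were lower, where 15.0% of all genes were. Higher were 13 of 24 ligands and 8 of 16 receptors. The median log2 fold change of the members was 1.26, against 0.007 over all genes tested. MASH and chow libraries did not overlap for 20 of the 21 higher members (Ackr1 was the exception) and for all 3 lower ones (Cxcl12, Cxcl13 and Ccl27a). Among all genes 40.1% did not overlap, and among the members 25 of 40.

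The count filter bears on this number. Ccl22, Ccl3, Ccl4, Ccr3, Ccr9, Cxcl5 and Xcl1 reached 10 counts in no chow library, so they entered through MASH diet libraries alone and lean towards a rise by construction. Among the 28 members with 10 counts in at least 3 chow libraries, 14 were higher and 3 lower, against 18.8% higher and 16.9% lower of 13937 genes under that rule. Without MASH 4 the higher members came to 16 of 40, and without MASH 3, or without MASH 4, 1 lower member was called.

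**Figure D1:**
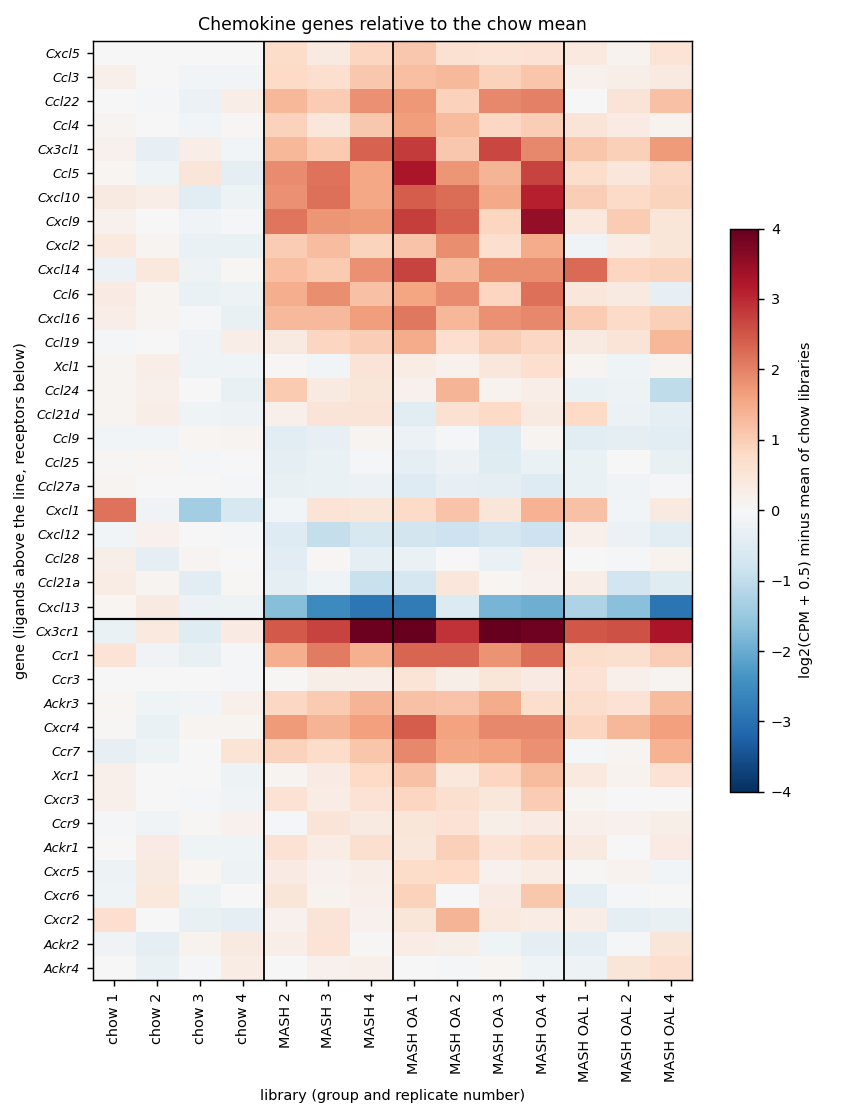
Each row is one of 39 analysed genes and each column a library; colour gives log2(CPM + 0.5) minus the mean of the chow libraries, with the scale ending at 4 (2 fields, both of Cx3cr1, lie beyond it, up to 4.26). Red fields fill most rows in the MASH and MASH OA columns and are paler in the MASH OAL columns, and the Cxcl13 row is blue in all columns on the MASH diet.

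Treatment with OA left no member past the threshold against MASH, as 0.00% of all genes passed in that comparison. At an unadjusted p below 0.05 stood 2 members and 973 genes by edgeR, while limma voom and DESeq2 called 0 members and, over all genes, 0 and 3. The fold changes of 33 of the 40 members were above 0 (median 0.53, all genes 0.003). The smallest adjusted p was 0.774, for Xcr1 (0.93 ± 0.42 on the log2 scale, SE), Cxcl16 (0.40 ± 0.18) and Ccr7 (1.03 ± 0.49). Cxcl16, whose higher value rests on the titles, came to −0.07 when the tags set the groups (adjusted p = 0.999). Over all 25 alternatives Xcr1 ran from 0.20 to 1.43 and Ccr7 from 0.16 to 1.19. The count of 33 also follows the titles.

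Treatment with OAL also left no member past the threshold against MASH, where 0.0696% of all genes (11 genes) passed, 0.00633% of them higher and 0.0633% lower. The values leaned the other way: 29 of 40 fold changes were below 0, with a median of −0.43 (all genes −0.013), and 13 members had an unadjusted p below 0.05, as did 2835 of all genes. OAL and MASH libraries did not overlap for 14 members (22.2% of all genes). The smallest adjusted p belonged to Ccl6 (−1.35 ± 0.32, adjusted p = 0.0777), Cxcl12 (0.55 ± 0.16, 0.108) and Ccl24 (−1.64 ± 0.48, 0.117). DESeq2 called 5 members lower and 1 higher here, among 948 genes called in all, and limma voom called 2 lower, among 586 genes.

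The compounds were compared directly in 1 pair, at the same 6 weeks and at doses that are not given. With OAL, 14 of 40 members (35%) were lower than with OA, where 8.83% of all genes were lower, and 2 (5%) were higher, where 7.24% were. Among the 14 were the ligands Ccl3, Ccl4, Ccl5, Ccl6, Ccl24, Cxcl2, Cxcl9, Cxcl10 and Cxcl16 and the receptors Ccr1, Cxcr3, Cxcr4 and Cxcr6, and the 2 were Cxcl12 and Ccl27a. The median over the members was −1.09, against −0.016 over all genes. The count filter bears on this comparison too: of the 14, Ccl3 and Ccl4 did not reach the minimum count in every OAL library. Among the 30 members that did, 12 were lower and 2 higher, against 9.05% and 7.97% of 14295 genes under that rule. OAL and OA libraries did not overlap for 12 of the 14 and for both higher genes, and for 21 of 40 members against 27.6% of all genes.

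The number of these calls depends on single libraries. Without OAL 2, which held the pancreatic transcripts, 5 members were lower, without OAL 1 there were 8, and without both libraries with conflicting labels there were 4, Ccl6 and Cxcl16 among them. Without OAL 2 and chow 2 there were 2, one of them Ccl6, and without MASH 4, OA 1 and OA 3 there were 9. With groups from the tags none was lower (0). Ccl6 ran from −1.88 to −1.32 over all 25 alternatives and lost the call only with the tag groups.

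**Figure D2:**
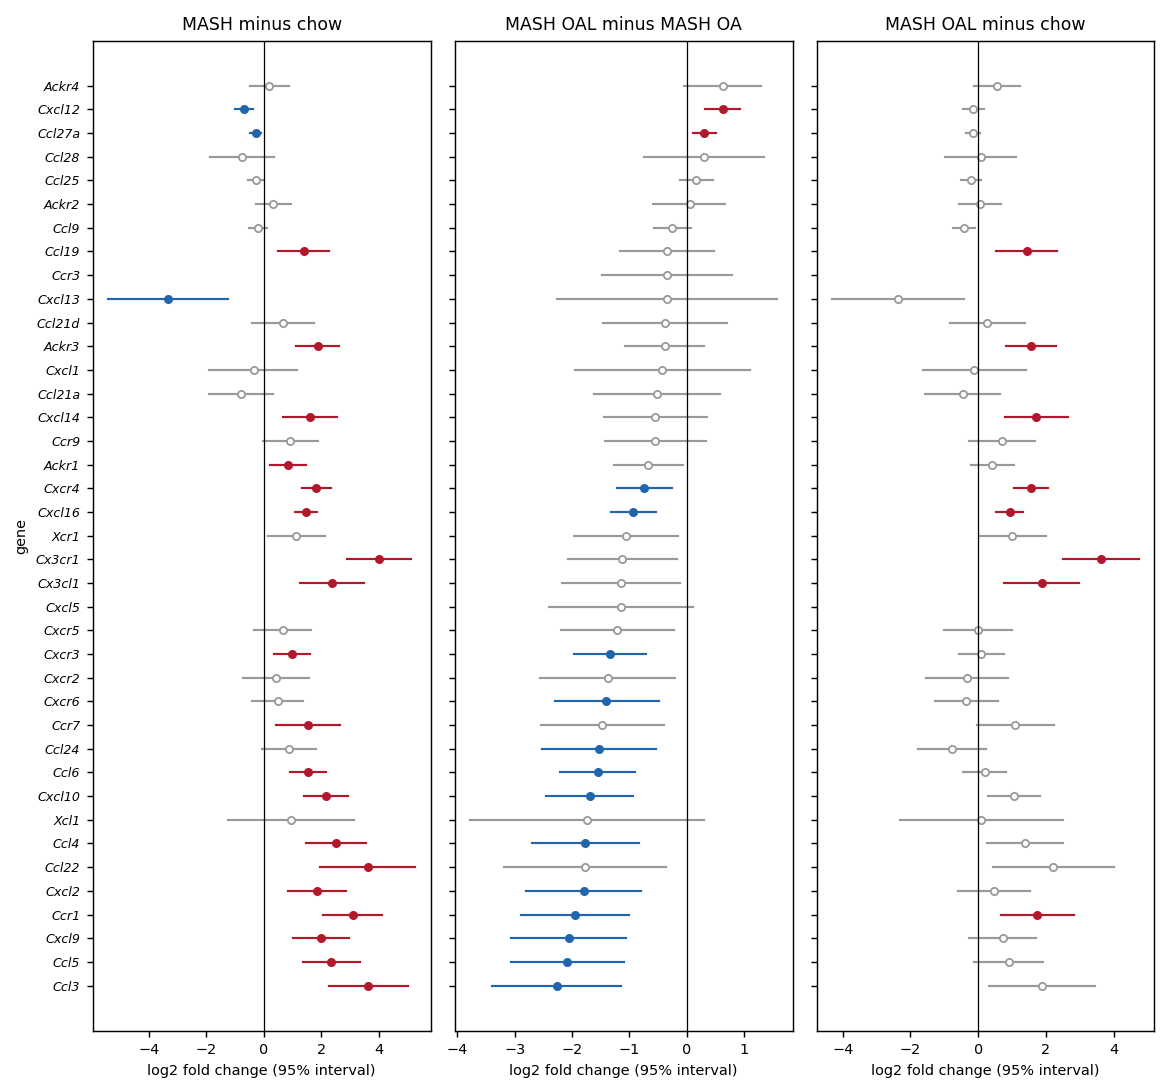
Log2 fold changes with 95% intervals for 39 of the genes in 3 comparisons, with red for higher, blue for lower and open grey for not past an adjusted p of 0.05 (edgeR). Cxcl5 and Ccr3 are left out of both panels against chow, where they had 0 and 3 counts; the middle panel holds 13 blue and 2 red genes.

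Against chow, 10 members (25%) were higher with OAL, where 10% of all genes were higher, and 0 were lower, where 4.29% were. limma voom called 2 members lower and DESeq2 1, among 3214 and 3232 genes called in either direction. At an unadjusted p below 0.05 stood 17 members and 4949 of all genes. The 10 were Ackr3, Ccl19, Ccr1, Ccr3, Cx3cl1, Cx3cr1, Cxcl14, Cxcl16, Cxcl5 and Cxcr4, and in all 10 the OAL and chow libraries did not overlap, as in 15 of the 40 members and 29.1% of all genes. Among the 28 members with 10 counts in 3 or more chow libraries 7 were higher, against 9.4% of genes under that rule. The count fell to 5 without chow 3 or without OAL 4, to 6 without chow 2 and to 4 with the tag groups. Cx3cr1 and Cxcr4 kept their call in all 25 alternatives.

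Cxcl9 and Cxcl10 encode interferon-induced ligands of Cxcr3, a receptor of activated T cells and natural killer cells. Cxcl9 stood at 5.41, 4.86, 4.33 and 4.65 CPM in chow and at 22.9, 17.7 and 16.7 in MASH. It reached 35.6, 26.6, 9.09 and 60.3 CPM with OA and 6.53, 10.3 and 6.89 with OAL. All MASH libraries lay above all chow libraries, OA 4 was the highest and OA 3 the lowest of its group, inside the OAL range. The log2 fold change was 1.99 for MASH against chow (adjusted p = 0.00507, edgeR) and −2.06 ± 0.46 for OAL against OA (0.0134). Without OA 1 and OAL 1 the latter was −1.89 and did not pass (0.108).

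Cxcl10 followed with 1.99, 1.87, 0.957 and 1.21 CPM in chow, 6.48, 8.6 and 5.18 in MASH, 9.90, 8.64, 5.12 and 16.5 with OA and 3.39, 2.80 and 3.11 with OAL. The OAL libraries formed a tight group between chow and the other groups, with no overlap on either side. Cxcl10 rose by 2.17 ± 0.35 from chow to MASH (adjusted p = 0.000573) and was lower by −1.69 ± 0.35 with OAL than with OA (0.00927), a call lost without OA 1 and OAL 1 (−1.77, 0.0593), without OAL 2 and chow 2, and with the tag groups. Their receptor Cxcr3 was far lower, with means of 0.346 ± 0.085 CPM (SD, n = 4) for chow, 0.683 ± 0.136 (n = 3) for MASH, 0.933 ± 0.249 (n = 4) with OA and 0.368 ± 0.036 (n = 3) with OAL. It was higher in MASH by 0.98 (adjusted p = 0.0183), a call lost without MASH 4 (0.0645) or without MASH 2 (0.0579), and lower with OAL than with OA by −1.33 ± 0.29 (0.0105), a call lost without OA 1 and OAL 1 (−1.36, 0.0692). Summed T and natural killer cell markers stood at 5.27 to 7.53 CPM in chow, 10.6 to 12.5 in MASH, 9.76 to 22.9 with OA and 6.64 to 8.22 with OAL, and their part in these results was not tested. The Cxcl10 locus lies inside Art3, a gene on the other strand, and the strand setting of the counting is not stated, so reads of both cannot be told apart.

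Ccl3, Ccl4 and Ccl5 encode inflammatory CC ligands, and Ccl3 and Ccl5 bind Ccr1. They draw monocytes, macrophages and T cells. Ccl5, the most abundant of the trio, stood at 0.864, 0.652, 1.33 and 0.501 CPM in chow, 4.29, 5.42 and 3.29 in MASH, 11.9, 3.92, 2.86 and 8 with OA and 1.61, 1.30 and 1.81 with OAL. OAL libraries lay below every MASH and OA library and only OAL 2 fell inside the chow range. Ccl5 rose by 2.35 ± 0.46 in MASH (adjusted p = 0.0019) and was lower with OAL than with OA by −2.08 ± 0.46 (0.0111), which came to −1.66 and did not pass without OA 1 and OAL 1 (0.0754).

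Ccl3 was near the detection limit in chow, with 4, 1, 0 and 0 counts, and had 21, 15 and 31 counts in MASH, 37, 29, 28 and 30 with OA and 5, 5 and 8 with OAL. In CPM the means were 0.0362 ± 0.0545 for chow (n = 4), 0.471 ± 0.149 for MASH (n = 3), 0.680 ± 0.137 with OA (n = 4) and 0.139 ± 0.037 with OAL (n = 3). The log2 fold change was 3.63 ± 0.63 in MASH (adjusted p = 0.000874) and −2.26 ± 0.52 for OAL against OA (0.0134). Ccl4 had the same order of group means, 0.1, 0.58, 0.898 and 0.260 CPM for chow, MASH, OA and OAL. It rose by 2.52 ± 0.48 in MASH (0.00168) and was lower by −1.77 ± 0.43 with OAL than with OA (0.0174). Both calls between OAL and OA were lost without OA 1 and OAL 1, at −2.06 for Ccl3 (0.106) and −1.80 for Ccl4 (0.0671).

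Ccr1, the receptor of Ccl3 and Ccl5, stood at 0.489, 0.119, 0.0504 and 0.147 CPM in chow, 1.39, 2.40 and 1.35 in MASH, 2.93, 2.93, 1.89 and 2.72 with OA and 0.601, 0.571 and 0.850 with OAL. None of the 4 groups overlapped another except MASH and OA. Ccr1 rose by 3.09 ± 0.48 in MASH (0.000384), was lower by −1.95 ± 0.44 with OAL than with OA (0.0118; without OA 1 and OAL 1 −1.81, 0.0943), and was still higher with OAL than in chow by 1.75 ± 0.50 (0.0347), a call lost in 11 of 25 alternatives. Recruited macrophage markers ran in the same order of groups (40.5 to 97.7, 357 to 586, 421 to 636 and 225 to 309 summed CPM for chow, MASH, OA and OAL), and their part in these levels was not tested.

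Ccl6 and Ccl9, a pair of rodent ligands of Ccr1, are neighbours in the genome and differed in their calls. Ccl6 went from 14, 12.1, 9.19 and 9.57 CPM in chow to 31.3, 41.3 and 25.3 in MASH, was 34.3, 42.2, 20.5 and 53.0 with OA and 15.2, 14.4 and 8.76 with OAL. OAL 1 and OAL 2 lay just above the chow libraries and OAL 4 just below them, and all 3 lay below every MASH and OA library. Ccl6 rose by 1.54 ± 0.29 in MASH (adjusted p = 0.00173) and was lower by −1.55 ± 0.30 with OAL than with OA (0.00778), and by −1.74 without OA 1 and OAL 1 (0.0415). Its difference between OAL and chow was 0.19, with a 95% interval of −0.45 to 0.83. The mean of Ccl9 was 42.1 ± 3.4 CPM for chow (n = 4), 36.5 ± 7.9 for MASH (n = 3), 37.5 ± 6.9 with OA (n = 4) and 31.5 ± 1.1 with OAL (n = 3). It passed in no comparison, with an interval of −0.52 to 0.11 on the log2 scale for MASH against chow. For OAL against chow its difference was −0.42 (interval −0.74 to −0.10, adjusted p = 0.0727), and those libraries did not overlap.

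**Figure D3:**
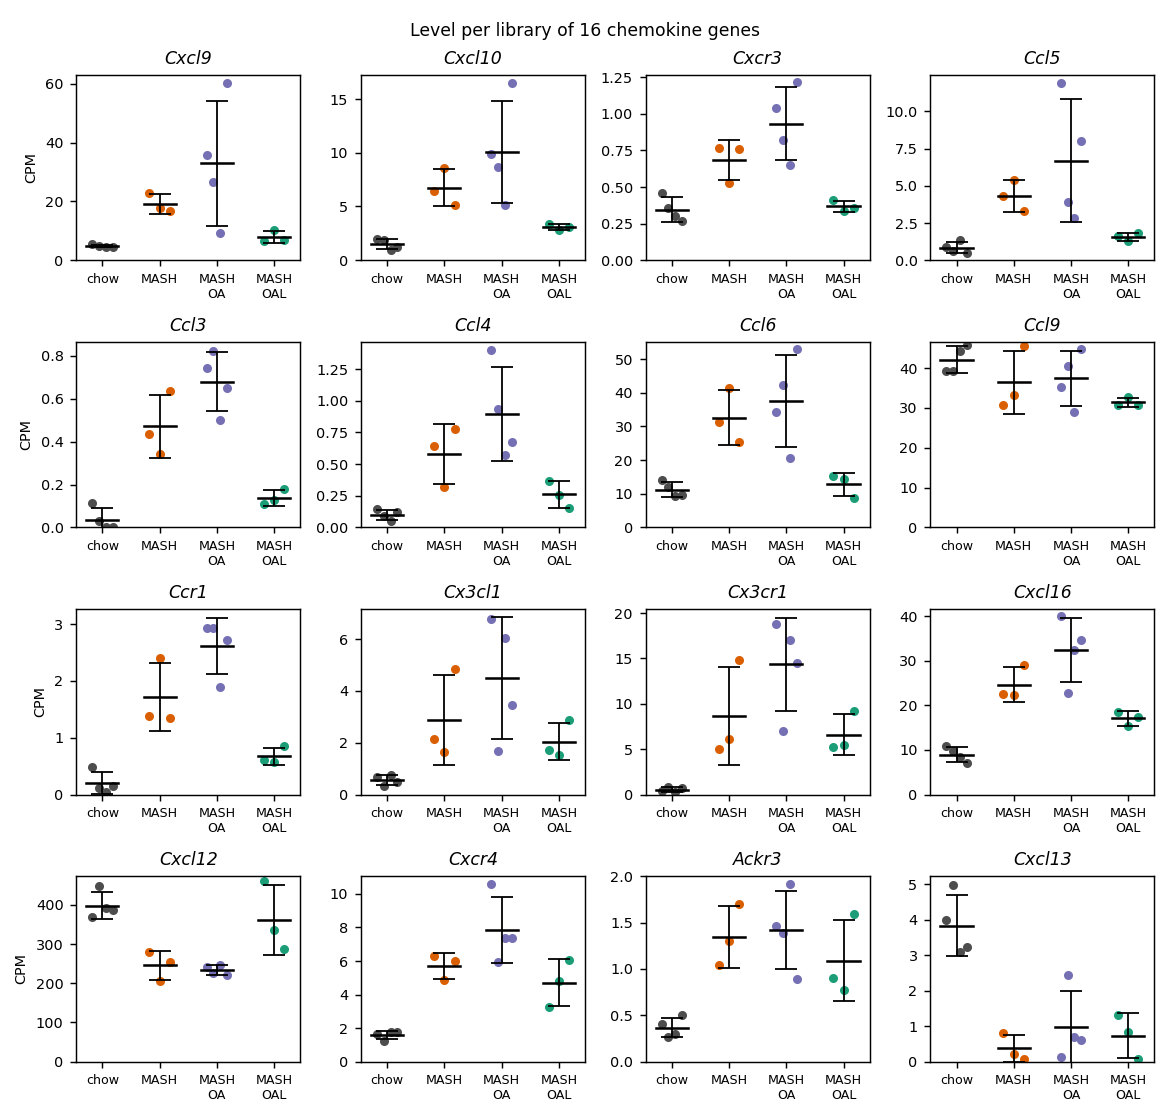
CPM of 16 members in each library, with the group mean as a line and the SD as an error bar (n = 4, 3, 4 and 3 for chow, MASH, MASH OA and MASH OAL; each panel has its own scale from 0). Ccl5, Ccl6 and Cxcl10 rise in MASH and are low with OAL, Cx3cr1 stays above chow in all 3 groups on the MASH diet, and Ccl9 passed in no comparison.

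The genes of these CC ligands form a run of 5 on GRCm38 chromosome 11, from 83525778 to 83664683, in the order Ccl5, Ccl9, Ccl6, Ccl3 and Ccl4. In this run 4 of 5 rose in MASH and the same 4 were lower with OAL than with OA, Ccl9 being the exception. Of all genes 20.2% were higher in MASH and 8.83% lower with OAL than with OA. Cxcl9 and Cxcl10 lie next to each other on chromosome 5, from 92321347 to 92348889, and were both higher in MASH and lower with OAL than with OA. Other runs were mixed. Of Cxcl5, Cxcl1 and Cxcl2 on chromosome 5, 2 were higher in MASH and 1 was lower with OAL than with OA. Ccl22 and Cx3cl1 on chromosome 8 were both higher in MASH, and 0 were lower with OAL than with OA. Whether neighbours change together was not tested. Neighbours were joined where gaps were under 200 kilobases.

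Cxcl1, Cxcl2 and Cxcl5 encode ligands of Cxcr2, which draw neutrophils. Cxcl2 stood at 0.576, 0.385, 0.176 and 0.177 CPM in chow, 1.16, 1.4 and 1 in MASH, 1.30, 2.44, 0.791 and 1.78 with OA and 0.236, 0.493 and 0.626 with OAL. It rose by 1.85 in MASH (adjusted p = 0.00813) and was lower by −1.79 ± 0.47 with OAL than with OA (0.0215), a call lost without OA 1 and OAL 1 (−1.56, 0.122). Cxcl1, which carries the same motif letters before its start, stood at 38.9, 7.35, 2.84 and 5.09 CPM in chow and 7.66, 12.3 and 11.6 in MASH, and chow 1 alone set the chow mean. Its fold change was −0.36 with an interval of −1.90 to 1.17, and 1.05 without chow 1 (adjusted p = 0.0608), and it passed in no comparison.

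Cxcl5 had no count in any chow library and 16, 6 and 20 counts in MASH, which put it at least 14.1-fold higher against a floor of 3 counts over the chow group (adjusted p = 0.00133). With OAL it had 7, 2 and 10 counts and was at least 6.93-fold higher than in chow (0.0156). The receptor Cxcr2 averaged 0.506 ± 0.369 CPM for chow (n = 4), 0.681 ± 0.163 for MASH (n = 3), 1.06 ± 0.60 with OA (n = 4) and 0.397 ± 0.235 with OAL (n = 3) and passed in no comparison. Neutrophil markers were highest in OAL 1, at 48.0 summed CPM against 5.52 and 5.77 in the other OAL libraries, where Cxcr2 was 0.666, 0.233 and 0.291, and in OA 2, at 25.5, where Cxcr2 was 1.96. The defining marker Ly6g was near the detection limit in every group. It had no count in any chow library, in 2 of 3 MASH, 1 of 4 OA and 2 of 3 OAL libraries, and reached at most 0.258 CPM.

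Cx3cl1 encodes a ligand anchored in the membrane until it is shed, and Cx3cr1 its receptor on monocytes and macrophages. Cx3cr1 had the largest rise among members with counts in every chow library. It stood at 0.345, 0.830, 0.227 and 0.765 CPM in chow, 4.99, 6.13 and 14.8 in MASH, 18.8, 7.05, 17.0 and 14.5 with OA and 5.20, 5.42 and 9.21 with OAL. Every library on the MASH diet, treated or not, lay above every chow library. The fold change was 4.01 ± 0.52 for MASH against chow (adjusted p = 0.000131) and 3.62 ± 0.52 for OAL against chow (0.00122). OAL against OA gave −1.12 with an interval of −2.07 to −0.17, which did not pass (0.102).

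Cx3cl1 stood at 0.662, 0.326, 0.755 and 0.471 CPM in chow, 2.13, 1.65 and 4.85 in MASH, 6.77, 1.68, 6.06 and 3.44 with OA and 1.72, 1.53 and 2.86 with OAL. It was higher in MASH by 2.36 (adjusted p = 0.00364) and with OAL by 1.87 ± 0.52 (0.0313), the latter lost in 9 of 25 alternatives, among them without OAL 1 and without OAL 4. In MASH, OA and OAL alike, ligand and receptor were highest in libraries rich in bile duct markers (MASH 4, OA 1, OA 3 and OAL 4, at 41.1 to 63.4 summed CPM, against 21.6 to 33.8 in the other 10). Stellate cell markers were highest of their groups in the same libraries, at 637 summed CPM in MASH 4, 817 in OA 1, 656 in OA 3 and 583 in OAL 4. Other libraries of these groups held 376 to 620. The part of either cell type was not tested. Without MASH 4, OA 1 and OA 3 the rises in MASH came to 1.74 for Cx3cl1 (0.00935) and 3.36 for Cx3cr1 (0.000817). Recruited macrophage markers stood at 40.5 to 97.7 summed CPM in chow, 357 to 586 in MASH, 421 to 636 with OA and 225 to 309 with OAL, and their part in the receptor's level was not tested. Cx3cr1 as annotated spans several other genes, whose reads could be counted with it.

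Cxcl16 encodes the other membrane-anchored chemokine, the ligand of Cxcr6 on liver T cells and natural killer T cells. It had the smallest p of all members for MASH against chow and for OAL against OA. Its values were 10.8, 9.66, 8.33 and 7.04 CPM in chow, 22.5, 22.4 and 29.1 in MASH, 40.0, 22.8, 32.4 and 34.6 with OA and 18.4, 15.3 and 17.5 with OAL. OAL libraries formed a step of their own, above all chow and below all MASH and OA libraries. Cxcl16 rose by 1.46 ± 0.18 in MASH (adjusted p = 8.48e-05), was lower by −0.93 ± 0.18 with OAL than with OA (0.00754; without OA 1 and OAL 1 −0.87, 0.0474), and was higher by 0.93 ± 0.18 with OAL than in chow (0.00583). Cxcl16 overlaps Zmynd15 on the other strand. Cxcr6 stood at 0.535 ± 0.223, 0.742 ± 0.167, 1.10 ± 0.53 and 0.420 ± 0.124 CPM in chow, MASH, OA and OAL. It did not pass in MASH (0.48, interval −0.41 to 1.36) and was lower with OAL than with OA by −1.4 (0.0392), a call lost in 11 of 25 alternatives (−1.01 without OA 1 and OAL 1, 0.267).

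Cxcl12 is the homeostatic ligand of Cxcr4, and Ackr3 is an atypical receptor that takes it up. Cxcl12 stood at 368, 447, 392 and 386 CPM in chow, 279, 205 and 254 in MASH, 241, 225, 247 and 222 with OA and 461, 336 and 287 with OAL. No MASH or OA library reached the chow range, OAL 1 exceeded it, and OAL 2 and OAL 4 lay between. Cxcl12 was lower in MASH by −0.69 (adjusted p = 0.00308) and higher with OAL than with OA by 0.63 ± 0.14 (0.0128). The latter came to 0.43 without OA 1 and OAL 1 (0.0981) and to 0.11 with the tag groups (0.904). Hepatocyte markers ran in the same order, at 70800 to 93100 summed CPM in chow, 47900 to 53800 in MASH, 38100 to 45900 with OA and 53200 to 75100 with OAL. Stellate cell markers did not, at 210 to 309 in chow, 418 to 637 in MASH, 376 to 817 with OA and 416 to 583 with OAL. Endothelial markers stood at 225 to 312 in all groups. The part of these cell types in the level of Cxcl12 was not tested.

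In MASH both receptors of Cxcl12 rose. Cxcr4 stood at 1.64, 1.24, 1.76 and 1.77 CPM in chow, 6.31, 4.85 and 6.02 in MASH, 10.6, 5.94, 7.40 and 7.37 with OA and 3.26, 4.80 and 6.06 with OAL. All libraries on the MASH diet lay above chow, and OAL overlapped both MASH and OA. Cxcr4 rose by 1.83 ± 0.23 in MASH (adjusted p = 9.49e-05) and was higher by 1.55 ± 0.23 with OAL than in chow (0.00138). It was lower with OAL than with OA by −0.74 (0.0402), a call lost in 13 of 25 alternatives (−0.35 without OA 1 and OAL 1, 0.324). Ackr3 averaged 0.368 ± 0.105 CPM for chow (n = 4), 1.35 ± 0.33 for MASH (n = 3), 1.42 ± 0.42 with OA (n = 4) and 1.09 ± 0.44 with OAL (n = 3). It rose by 1.87 ± 0.34 in MASH (0.00125) and by 1.56 ± 0.35 with OAL against chow (0.0112), and OAL against OA gave −0.38 with an interval of −1.07 to 0.31.

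Cxcl13, Ccl19 and Ccl21 guide B cells, T cells and dendritic cells in lymphoid tissue. Cxcl13, the ligand of Cxcr5, stood at 4.00, 4.98, 3.10 and 3.24 CPM in chow, 0.807, 0.229 and 0.0818 in MASH, 0.120, 2.44, 0.683 and 0.609 with OA and 1.31, 0.830 and 0.0671 with OAL. Every library on the MASH diet lay below every chow library. Cxcl13 was lower in MASH by −3.34 (adjusted p = 0.0171). The p rose past the threshold without MASH 3 (0.0577) and without MASH 4 (0.0669), and the value reached −4.62 without MASH 2. With OAL the difference from chow was −2.37 (interval −4.32 to −0.43), which did not pass (0.0931). Its receptor Cxcr5 stayed at 0.115 to 0.739 CPM in all libraries and passed in no comparison.

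Ccl19 and its receptor Ccr7 stood above chow in MASH. Ccl19 went from 0.370 ± 0.111 CPM in chow to 0.968 ± 0.307 in MASH, and was 1.26 ± 0.45 with OA and 0.994 ± 0.575 with OAL. The rise was 1.39 (adjusted p = 0.0192, lost without MASH 4 at 0.0796 and without MASH 3 at 0.0508), and OAL against chow gave 1.43 ± 0.41 (0.0363, lost in 8 of 25 alternatives, among them without OAL 4). The deposited values of Ccl19 were fractional in all 14 libraries, and it overlaps 4930578G10Rik on the other strand. Ccr7 went from 0.417 ± 0.266 to 1.21 ± 0.22 CPM, a rise of 1.53 (0.0362), which did not pass without MASH 4 (0.108) or without MASH 2 (0.0684). With OA it was 2.47 ± 0.38 and with OAL 0.365, 0.467 and 1.83 CPM, where OAL 4 stood apart from the other OAL libraries. Ccl21a and Ccl21d, near-identical ligands of Ccr7 whose reads cannot be told apart with certainty, and Ackr4, an atypical receptor of these ligands, passed in no comparison.

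Of the remaining ligands, Ccl22, which dendritic cells and macrophages make, had 12 counts over the chow libraries and 153 over the MASH libraries. It rose by 3.61 (adjusted p = 0.00336) and was 1.4 ± 0.56 CPM with OA and 0.409 ± 0.365 with OAL, a difference of −1.78 that did not pass (0.0829). Cxcl14, a homeostatic chemokine, went from 1.81 ± 0.53 CPM in chow to 5.51 ± 1.80 in MASH, 8.73 ± 4.02 with OA and 5.96 ± 3.87 with OAL. It was higher in MASH by 1.61 (0.0121, lost without MASH 4 at 0.0618) and with OAL by 1.72 ± 0.43 (0.0213). OA 1 and OAL 1, at 14.4 and 10.4 CPM, were the highest libraries of their groups.

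Ccl24 and Ccr3, an eosinophil ligand and its receptor, were low throughout. Ccl24 stood at 2.59, 1.42 and 1.60 CPM in MASH, 1.2, 3.33, 1.15 and 1.3 with OA and 0.751, 0.804 and 0.246 with OAL, and was lower with OAL than with OA by −1.53 (adjusted p = 0.0396, lost in 12 of 25 alternatives, and −1.87 at 0.0936 without OA 1 and OAL 1). Ccr3 had 3 counts over the 4 chow libraries, 13 over MASH and 20 over OAL. The pooled ratio to chow was 4.37 (95% interval 1.2 to 23.9, counting error only) in MASH, which did not pass (0.068), and 7.30 (2.16 to 38.4) with OAL (0.0314). Of the 20 OAL counts 13 came from OAL 1, where summed mast cell and eosinophil markers also peaked at 4.47 CPM against 0.363 and 0.559 in the other OAL libraries, and without OAL 1 the call was lost (0.145).

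Ccl27a, an epithelial ligand, moved by small amounts against little spread. Its means were 8.29 ± 0.49 CPM for chow (n = 4), 6.77 ± 0.13 for MASH (n = 3), 6.00 ± 0.44 with OA (n = 4) and 7.46 ± 0.59 with OAL (n = 3). It was lower in MASH by −0.29 (adjusted p = 0.0285, lost in 10 of 25 alternatives) and higher with OAL than with OA by 0.31 (0.0379, lost in 13, and 0.34 at 0.109 without OA 1 and OAL 1). Its deposited values were in part fractional, and it overlaps Il11ra1 on the other strand. Ackr1, an atypical receptor of blood vessel walls, was higher in MASH by 0.84 (0.0342, lost in 8 alternatives), with 0.547 ± 0.179 CPM in chow and 0.980 ± 0.180 in MASH. The deposited values of Ackr1 were fractional in 2 libraries, and it overlaps Cadm3 on the same strand. Ccl25 and its receptor Ccr9, Ccl28, Xcl1 and its dendritic cell receptor Xcr1, and the scavenger Ackr2 passed in no comparison, and Xcl1 had at most 19 counts in a library.

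Sorted by their calls, the members fell into a few patterns. Higher in MASH, lower with OAL than with OA and not past the threshold against chow with OAL were 9 genes, among them Ccl3, Ccl4, Ccl5, Ccl6, Cxcl10, Cxcl2, Cxcl9 and Cxcr3. This does not show that they were back at the chow level: the interval of OAL against chow was 0.28 to 1.82 for Cxcl10, −0.12 to 1.91 for Ccl5 and −0.27 to 1.70 for Cxcl9. Ccr1, Cxcl16 and Cxcr4 also were lower with OAL than with OA but still above chow. Ackr3, Ccl19, Cx3cl1, Cx3cr1, Cxcl14 and Cxcl5 were above chow in MASH and with OAL, and OAL did not pass against OA. In MASH alone, Ackr1, Ccl22 and Ccr7 were called higher and Cxcl13 lower. Cxcl12 and Ccl27a were lower in MASH and higher with OAL than with OA. Ccl24 and Cxcr6 were called only between OAL and OA, Ccr3 only between OAL and chow, and 13 members in no comparison. The comparisons share libraries, so these patterns are not separate lines of evidence.

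Levels of different genes were compared per kilobase of exon. Cxcl12 ranked first in every group, at 48.7 ± 4.2 CPM per kilobase in chow, 30.1 ± 4.6 in MASH, 28.6 ± 1.5 with OA and 44.2 ± 10.9 with OAL. Ccl9 followed in chow at 13.8 ± 1.1 and Ccl6 in MASH at 18.2 ± 4.5, where Ccl9 came next at 12 ± 2.6. Next in MASH stood Cxcl16 at 8.16 ± 1.27 and Cxcl9 at 6.32 ± 1.11, which differ by less than their spreads together. Cxcl13 ranked sixth in chow at 3.33 ± 0.75 and came to 0.324 CPM per kilobase in MASH. Cxcr4 was the highest receptor in MASH, at 3.17 ± 0.43. Summed over genes, the 13 CC ligands came to 69.9 ± 1.3 CPM in chow, 90.2 ± 6.7 in MASH, 98.9 ± 22.6 with OA and 60.8 ± 3.5 with OAL. The 8 analysed CXC ligands other than Cxcl12 came to 34.8 ± 19.4, 68.4 ± 2.8, 104 ± 33 and 47.9 ± 10.3 CPM. Chow 1, with its high Cxcl1, came to 63.1 CPM, against 21.2 to 31.7 in the other chow libraries and 41 to 59.7 with OAL.

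Lists of genes that work around the chemokines are read against the same shares of all genes, 20.2% higher and 15.0% lower in MASH and 8.83% lower with OAL than with OA. List calls between OAL and OA follow the titles and are not given without OA 1 and OAL 1. Of 27 genes that carry the signal below chemokine receptors (G proteins, arrestins, kinases and regulators of the cytoskeleton), 21 were higher in MASH and 0 lower, with a median of 0.96 against 0.007 over all genes, and 18 were lower with OAL than with OA (median −0.69). The smallest p in MASH belonged to Dock2, a Rac activator of leukocytes, at 1.84 ± 0.17 (adjusted p = 1.32e-05), then Gnai2 at 0.66 ± 0.06, Pik3cg at 1.63 ± 0.18 and Elmo1 at 1.36 ± 0.18. With OAL against OA, Dock2 was lower by −1.15 ± 0.17 (0.0033).

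A list on chemokine induction held cytokines, their receptors, transcription factors and NF-kB inhibitors. Of its 19 tested genes 10 were higher and 1 lower in MASH (median 0.52). With OAL 11 were lower than with OA (median −0.47). The NF-kB subunits Nfkb2 and Relb were higher in MASH by 1.02 ± 0.13 (adjusted p = 8.34e-05) and 1.72 ± 0.22 (0.000102), the interferon factor Irf8 by 1.35 ± 0.17 (8.48e-05) and the NF-kB inhibitor Tnfaip3 by 1.65 ± 0.21 (9.17e-05). Tnf stood at 0.0497 ± 0.0642 CPM in chow, 0.428 ± 0.214 in MASH, 0.764 ± 0.191 with OA and 0.180 ± 0.096 with OAL. Ifng, the classical inducer of Cxcl9 and Cxcl10, stayed at or below 0.0652 CPM in every library and was not tested.

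Of 16 tested genes that shed, cut or present chemokines 6 were higher and 1 lower in MASH (median 0.31), and 5 were lower with OAL than with OA. Adam10, which sheds Cx3cl1 and Cxcl16, was higher in MASH by 0.33 ± 0.07 (adjusted p = 0.00354) and lower with OAL than with OA by −0.36 ± 0.07 (0.00802). Mmp12, a macrophage protease that cuts chemokines, was higher in MASH by 6.80 ± 0.39 (9.59e-07), and Sdc4, a heparan sulfate carrier, was lower by −0.88 ± 0.21 (0.00711). Outside the naming pattern, the chemokine-like genes Pf4, Cmklr1, Ccrl2 and Cklf, 4 of 8, were higher in MASH, and Cmklr1 was lower with OAL than with OA by −1.16 ± 0.18 (0.0033).

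Marker lists of other cell types are read against all genes, of which 20.2% were higher and 15.0% lower in MASH, and 7.24% higher and 8.83% lower with OAL than with OA. In MASH 8 of 9 recruited macrophage markers were higher than in chow, 3 of 13 T and natural killer cell markers, 0 of 7 bile duct markers, 3 of 7 dendritic cell, 2 of 6 neutrophil, 2 of 7 B cell and 1 of 6 Kupffer cell markers, and 6 of 8 stellate cell markers, while 5 of 6 hepatocyte markers were lower. With OAL 7 of 9 recruited macrophage and 6 of 13 T and natural killer cell markers were lower than with OA, and 3 of 6 hepatocyte markers were higher. The shares of T and natural killer, neutrophil, B and Kupffer cell markers higher in MASH are near that of all genes. Endothelial markers stood at 225 to 312 summed CPM in all groups. Erythroid markers were higher with OAL than with OA for 4 of 4 tested. Marker calls between OAL and OA also follow the titles and are not given without OA 1 and OAL 1. Follicular lymphoid (0.324 to 1.32 summed CPM), platelet (2.87 to 5.14) and mast cell and eosinophil markers (0.0589 to 4.47) were low, with Gp6 and Madcam1 at 0 in all chow libraries and Epx at 0 in all but 1 OAL library. The part of these cell types in the chemokine results was not tested.

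**Figure D4:**
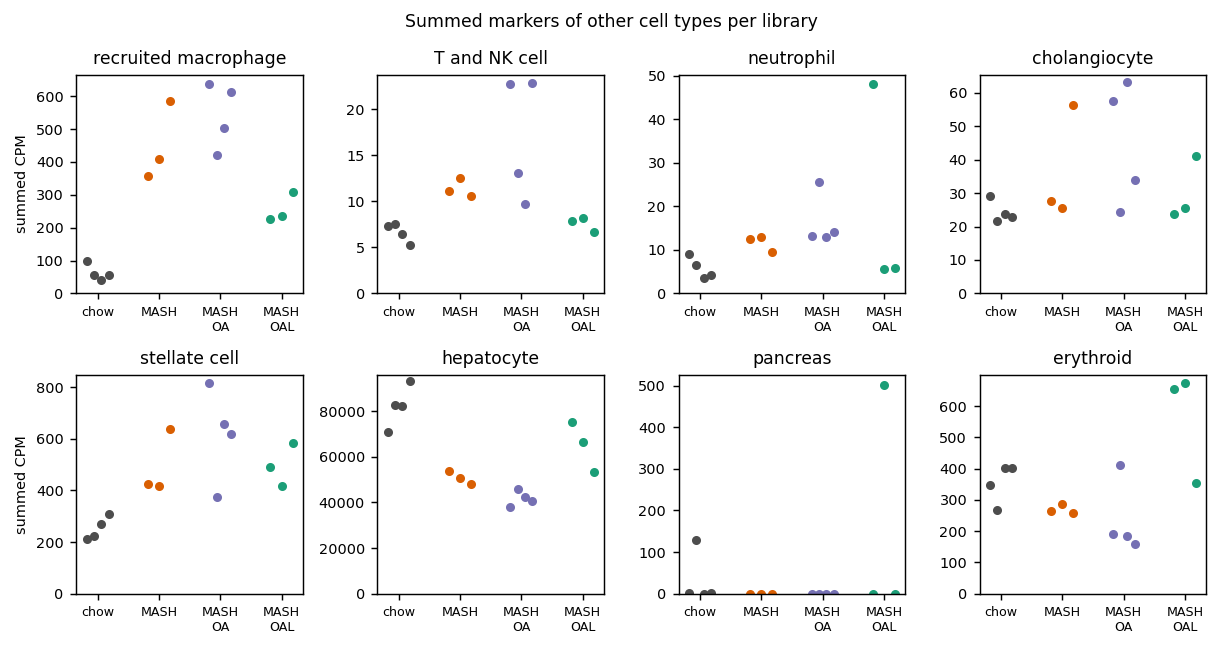
Summed CPM of 8 lists of cell type markers in each library, by group, each panel with its own scale from 0. Recruited macrophage markers are lowest in chow (40.5 to 97.7) and lower with OAL (225 to 309) than in MASH and OA (357 to 636), neutrophil markers peak in OAL 1 (48.0) and pancreas markers in OAL 2 (501).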

How the data were processed

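Gene counts of 14 liver libraries were used. The table deposited by the authors holds expected counts per Ensembl gene, in part fractional (5.09% to 5.76% of values per library), which were rounded to whole counts. The submitters' processing notes name GRCm38, HTSeq and DESeq2 1.42.1 without saying what each was used for. RNeasy Mini kits served for RNA and NEBNext Ultra II for the libraries, per the labels. The authors' tables of comparisons were not used, as no key to their group letters was found.

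Members and gene lists were chosen with earlier results of these data known. Genes with at least 10 counts in 3 or more libraries were tested, the rule of the gene set applied to all genes. A robust quasi-likelihood fit (edgeR 4.0.16 under R 4.3.3) took all 14 libraries in 4 groups after TMM scaling. Its two-sided p-values were Benjamini-Hochberg adjusted within each of 5 comparisons over 15807 genes. The fit was tested on simulated data. CPM is relative to the TMM-scaled library size. Floors are 3 counts over a group, intervals are 95%, and both cover counting error or the fitted spread only. Exon lengths and positions came from GENCODE M21, which held 45143 of 45706 identifiers and all 60 members. Analysed members could be named, except 1 that is counted in the totals and not reported here. Full statistics are given for at most 12 passing members with the smallest p per comparison, or the top 3 where fewer than 3 passed, and for up to 4 genes per pathway list.

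Same-numbered libraries of different groups deviated much as other pairs did, so no block was used. Their r ran from −0.244 to 0.422 (18 pairs, median 0.032), against −0.514 to 0.491 for pairs of unlike number (55 pairs, median −0.01). Above 0.1 stood 6 and 14 pairs. The alternatives tried were RLE scaling, testing without a filter, filterByExpr with a minimum count of 10, DESeq2 1.42.0, limma 3.58.1 voom with sample weights, the compared groups alone, a replicate block, groups from the treatment tags, and libraries left out. Leaving out libraries rich in bile duct or pancreas markers was added after the data were seen.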

Additional observations from a re-analysis of the deposited data

Results flagged for a closer look

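In sets of 4 libraries the highest or lowest value was compared with the spread of the others, over 80 combinations of a member with chow or OA, and 5 stood apart by Dixon's criterion at the 95% level. Chance alone gives about 1 in 20. Cxcl1 stood at 38.9 CPM in chow 1, against 2.84 to 7.35 in the other chow libraries. Ccr3 had 0 CPM in chow 4, against 0.0252 to 0.0296, which is 1 count each in the other chow libraries. In OA 2, Ccl24 reached 3.33 CPM (others 1.15 to 1.30) and Cxcr2 reached 1.96 (others 0.674 to 0.842), in the OA library with the most neutrophil markers (25.5 summed CPM). OAL 1 held more of these markers (48.0), with Ccl24 at 0.751 CPM and Cxcr2 at 0.666. The part of neutrophils was not tested. Cxcl5 stood at 0.561 CPM in OA 1, against 0.234 to 0.256 in the other OA libraries.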

How the results depend on the processing

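In 25 alternatives every called member kept its sign in each of the 3 comparisons with calls. Of the uncalled values that were rerun (Cxcl1 in MASH and the 3 members of smallest p in each of OA and OAL against MASH), Cxcl16 for OA against MASH changed sign with the tag groups (−0.07). Cxcl1 for MASH against chow did so with limma voom (0.85), with the replicate block (0.59) and without chow 1 (1.05; −0.70 to 1.05 for single libraries). In MASH against chow the higher count ran from 16 to 22 when single libraries were left out and from 17 to 23 in the other alternatives, and the lower count from 1 to 3 and from 2 to 4. For OAL against OA the lower count of 14 became 23 with limma voom, 0 with the tag groups, 4 without both conflicting libraries, 9 without the bile duct rich and 2 without the pancreas rich libraries, and ran from 5 to 17 when single libraries were left out. The higher count of 2 became 1 without a filter, with the compared groups alone, with the replicate block and without the pancreas rich libraries, and 0 with the tag groups, without both conflicting libraries and without the bile duct rich libraries (1 to 2 for single libraries). For OAL against chow the higher count of 10 became 4 with the tag groups and 6 without the pancreas rich libraries (5 to 11 for single libraries). Its lower count of 0 became 2 with limma voom and 1 with DESeq2, the compared groups alone, the replicate block and without the bile duct rich libraries (0 to 1 for single libraries). For OAL against MASH, DESeq2 called 1 higher and 5 lower and limma voom 2 lower (0 to 1 lower for single libraries). The cause of these shifts was not tested, beyond fewer libraries in the fits that leave some out. Under the replicate block, whose numbers do not pair the libraries by the check, 23 members were higher in MASH and 15 lower with OAL than with OA. The other replicate block counts were within 1 of those given. Ccr3, Xcl1, Ccl28 and Ccr9 rest on few reads, with at most 13, 19, 20 and 21 counts in a library.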
